A study of Rattus norvegicus with 6 samples.

Results

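The Notch receptors Notch1, Notch2 and Notch3, their ligands Dll1, Dll3, Jag1 and Jag2, and the effector genes Hes1, Hes5 and Hey1 were examined in cultured precursors of the myelin-forming oligodendrocytes (oligodendrocyte precursor cells, OPCs). These 10 genes were chosen by name as core members of the Notch pathway, and all 10 had a row among the 32883 genes of the deposited count table. Primary OPCs were prepared from the cerebral cortex of newborn (P0) Sprague Dawley rats, with the cortices of 2 animals going into a preparation, and were purified by shaking them off a mixed glial culture. They were then kept with 5 µM ZJU-37, an inhibitor of the kinase RIPK1, or with an equal volume of its solvent DMSO. Per the labels the treatment lasted 36 h, whereas the study's methods give a shorter time. Poly-A RNA was sequenced from 3 libraries per group. The study's methods call these biological repeats, whereas its description of the plotted data calls them plate wells. The labels do not say whether they came from separate cultures, so the p-values measure the spread between these libraries, which may be technical.

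Notch signaling runs between touching cells. A Delta-like or Jagged ligand on a cell pulls on a Notch receptor of its neighbor, the receptor is cut first by an ADAM protease and then by γ-secretase, and the freed intracellular domain enters the nucleus. There it joins the DNA-binding protein RBPJ and a Mastermind co-activator and turns on HES and HEY genes, which encode basic helix-loop-helix repressors. In the oligodendrocyte lineage the pathway is known for holding precursors back from maturation, and Jag1 and Hes5 are its best known ligand and effector there.

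Library totals lay between 13935865 and 24097927 counts, at which 3 counts correspond to between 0.124 and 0.219 CPM (counts of a gene scaled to a common library size, here with the trimmed mean of M values, TMM), a floor that covers counting error only. The Notch genes took between 0.0547% and 0.0696% of a library's counts, and each of the 10 passed the filter on low counts. Of the OPC markers Pdgfra, Cspg4, Olig1, Olig2, Sox10, Nkx2-2 and Gpr17, all 7 were tested, and their summed level ran from 2855 to 3358 CPM with DMSO and from 2934 to 4182 CPM with ZJU-37. Pdgfra, Cspg4 and Olig1 were higher with ZJU-37, and Sox10, Nkx2-2 and Gpr17, a gene of committed precursors, were lower (adjusted p at most 0.0430, edgeR). Markers of other cells were also present. The 9 microglia markers summed to between 1788 and 3045 CPM with DMSO and between 1285 and 2638 CPM with ZJU-37, and the 7 astrocyte markers to between 479 and 848 CPM and between 311 and 546 CPM. The 6 oligodendrocyte markers summed to between 10457 and 21164 CPM with DMSO and between 4471 and 9466 CPM with ZJU-37. In bulk RNA, fewer cells of a type and less RNA per cell cannot be told apart, for the Notch genes as for the markers.

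The comparison asked which Notch genes differ in OPCs kept with the inhibitor. None of the 10 passed an adjusted p-value of 0.05 in edgeR's quasi-likelihood test over all 14670 tested genes, of which 15% did. At an unadjusted p-value under 0.05 there was 1 member, Dll3, against 28.7% of all tested genes. DESeq2 called the same gene at an adjusted p-value of 0.0468, beside 2600 of 14858 tested genes called. The log2 fold changes of the 10 genes ran from -0.42 for Notch3 to 0.44 for Dll3 with a median of 0.08, beside a median of -0.03 over all tested genes, and 5 were positive and 5 negative. The ranges of the groups were apart for 3 of the 10 genes, beside 35.2% of all tested genes. Dll1 and Dll3 lay higher with ZJU-37, as did 19.0% of all tested genes, and Notch2 lay lower, as did 16.2%. Values of 3 libraries are listed in the order of replicates 1, 2 and 3 throughout.

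Libraries of the same replicate number deviated from their group means together. In the fit that used this pairing as a block, 4 of the 10 genes passed the adjusted threshold, beside 32.1% of all tested genes. Notch1 and Dll3 were higher and Notch2 and Notch3 were lower with ZJU-37 in that paired fit. When the pair of replicate 3 was left out of it, 1 gene, Notch3, remained past the threshold, beside 2461 of 14723 tested genes. Without the pair of replicate 1 there were 5, namely Notch2, Notch3, Dll1, Dll3 and Jag1, beside 4885 of 14827. DESeq2 with the same block called 2 genes, Notch2 and Notch3, beside 3284 of 14490.

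**Figure D1:**
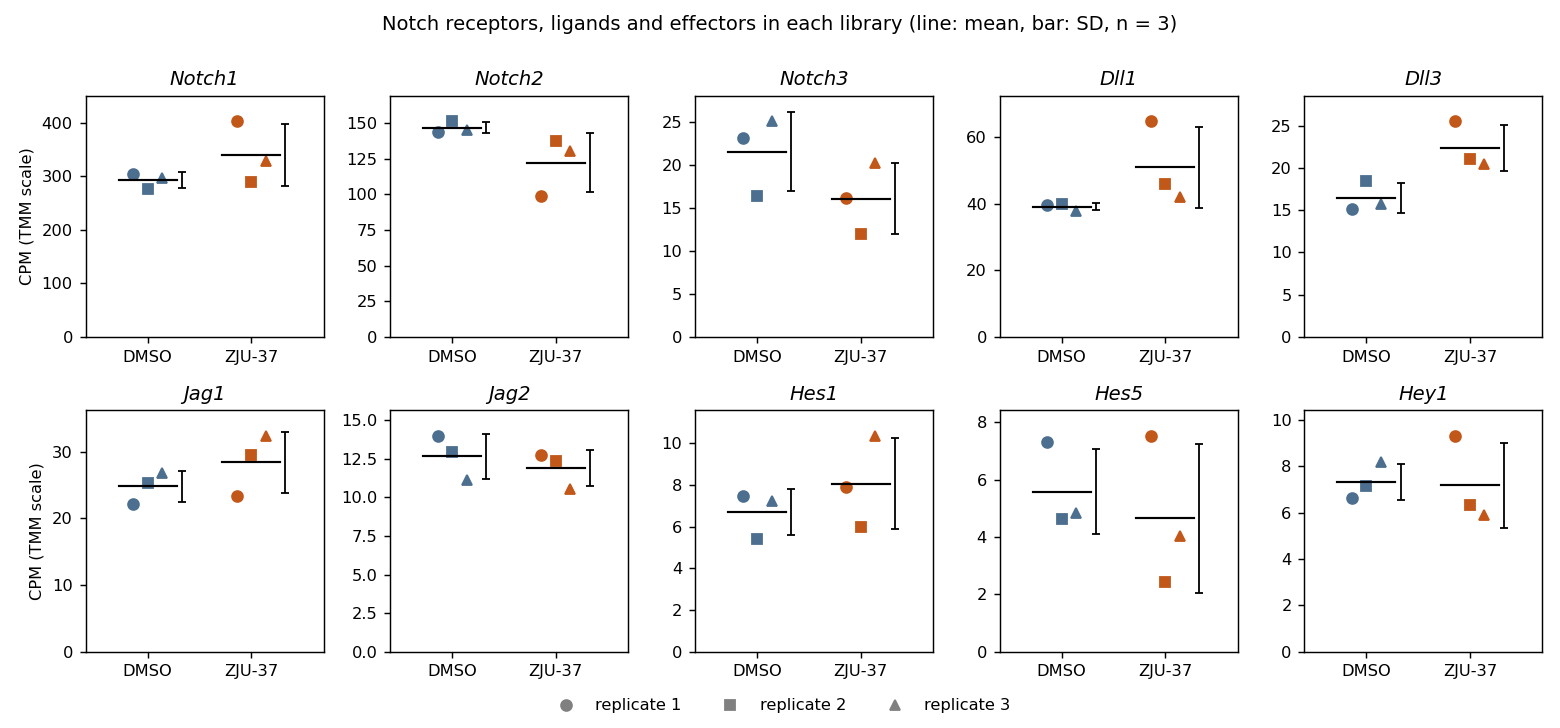
CPM on the TMM scale (y axis, linear from 0) of each of the 10 Notch genes in the 3 DMSO and 3 ZJU-37 libraries (x axis), with the symbol shape giving the replicate number, the line the group mean and the bar its SD. Dll1, Dll3 and Notch2 are the genes whose groups do not overlap, and ZJU-37 replicate 1 lies farthest from the DMSO libraries in each of these.

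Among the receptors, Notch1 (ENSRNOG00000019322) was the most abundant. The table places it at 3905453 to 3951025 of chromosome 3 (minus strand), in a genome build that is not given in the sources used here. Its expression was 305, 276 and 297 CPM under DMSO against 403, 290 and 328 CPM under ZJU-37. ZJU-37 replicate 1 stood above all other libraries, and ZJU-37 replicate 2 lay within the DMSO range. Group means of 293 ± 14.9 CPM and 340 ± 57.3 CPM (SD, n = 3 each) gave a log2 fold change of 0.22 ± 0.12 (SE), with an adjusted p-value of 0.316 in edgeR. With the replicate block the log2 fold change was 0.20 ± 0.067 (SE), with an adjusted p-value of 0.0466 in edgeR. All 3 pairs were positive, with log2 differences of 0.40, 0.07 and 0.14. Without the pair of replicate 1 the blocked value was 0.11 and its adjusted p-value was 0.0515 in edgeR, and Notch1 did not pass without the pair of replicate 2 or 3 either (adjusted p = 0.0544 and 0.167, edgeR).

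Notch2 (ENSRNOG00000018835, chromosome 2 from 200187179 to 200320215, plus strand) had a negative log2 fold change. It had 144, 151 and 145 CPM in the DMSO libraries, and 98.8, 137 and 130 CPM after ZJU-37. Every ZJU-37 library was below every DMSO library, and ZJU-37 replicate 1 was the lowest. The means of 147 ± 3.93 CPM and 122 ± 20.5 CPM (SD, n = 3 each) gave a log2 fold change of -0.26 ± 0.12 (SE), with an adjusted p-value of 0.219 in edgeR. In the blocked fit the log2 fold change was -0.27 ± 0.083 (SE), with an adjusted p-value of 0.0429 in edgeR. It was -0.14 without the pair of replicate 1 (adjusted p = 0.0261, edgeR) and -0.34 without the pair of replicate 3 (adjusted p = 0.0831, edgeR).

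Notch3 (ENSRNOG00000004346, chromosome 7 from 14138495 to 14189688, minus strand) is a receptor best known from the mural cells of blood vessels. It was the least abundant of the 3 receptors examined. Notch4, a receptor outside the chosen genes, had lower means of 3.565 CPM with DMSO and 3.89 CPM with ZJU-37. The level of Notch3 was 23.2, 16.4 and 25.1 CPM in controls and 16.2, 11.98 and 20.2 CPM in treated cells. Replicate 2 was the lowest library of each group and the groups overlapped, whereas each ZJU-37 library was below its DMSO counterpart, by 0.52, 0.46 and 0.31 on the log2 scale. Its group means, 21.6 ± 4.56 CPM and 16.1 ± 4.12 CPM (SD, n = 3 each), gave a log2 fold change of -0.42 ± 0.23 (SE), with an adjusted p-value of 0.305 in edgeR, and -0.43 with the block (standard error 0.092, adjusted p = 0.00653, edgeR). Notch3 was past the threshold in each of the 3 blocked fits that left out a pair, with adjusted p-values between 0.0134 and 0.0382 in edgeR.

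Markers of other cell types that can carry Notch2 and Notch3 RNA had mostly negative log2 fold changes too. The mural cell markers Pdgfrb, Rgs5, Acta2, Des and Kcnj8 summed to between 6.21 and 16.0 CPM with DMSO and between 4.60 and 11.1 CPM with ZJU-37, and 2 of the 5 passed the filter on low counts. Rgs5, a defining pericyte gene, had 3 counts over all 6 libraries. Of the 9 microglia markers, 8 had a negative log2 fold change, 0 passed the adjusted threshold without the block and 3 were lower with it. Of the 7 astrocyte markers, 7 had a negative log2 fold change, Aldoc was lower without the block and 5 were lower with it. Among all 14670 tested genes, 7917 had a negative log2 fold change. At the adjusted threshold, 5.58% of all tested genes were lower without the block and 15.9% with it. The 4 endothelial markers found summed to between 15.05 and 18.2 CPM and between 11.0 and 14.8 CPM, with Cldn5 at 0 in every library, the 3 fibroblast markers to between 31.9 and 68.8 CPM and between 19.2 and 53.4 CPM, and the 5 neuron markers to between 248 and 359 CPM and between 222 and 303 CPM, each DMSO first. The part of these cells in the receptor values was not tested.

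Levels of different genes were compared as CPM per kb of the gene length in the table. With DMSO, Notch1 had 30.7 ± 1.56 CPM per kb, Notch2 12.7 ± 0.340 and Notch3 2.95 ± 0.624 (SD, n = 3 each). Within a library, Notch1 made up between 65.5% and 67.2% of the summed CPM per kb of these 3 receptors with DMSO. With ZJU-37 it made up between 69.2% and 79.7%. This share does not depend on how libraries are scaled. Its means were 66.3 ± 0.897% and 73.3 ± 5.59% (SD, n = 3 each), and the groups did not overlap (exact permutation test, two-sided, p = 0.1, which 3 libraries against 3 cannot go below, and 0.333 when adjusted over the 10 shares of receptors, ligands and effectors). The Notch2 share overlapped between the groups, with 27.4 ± 1.83% and 22.1 ± 5.54%, as did that of Notch3, with 6.34 ± 1.14% and 4.53 ± 1.03%.

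**Figure D2:**
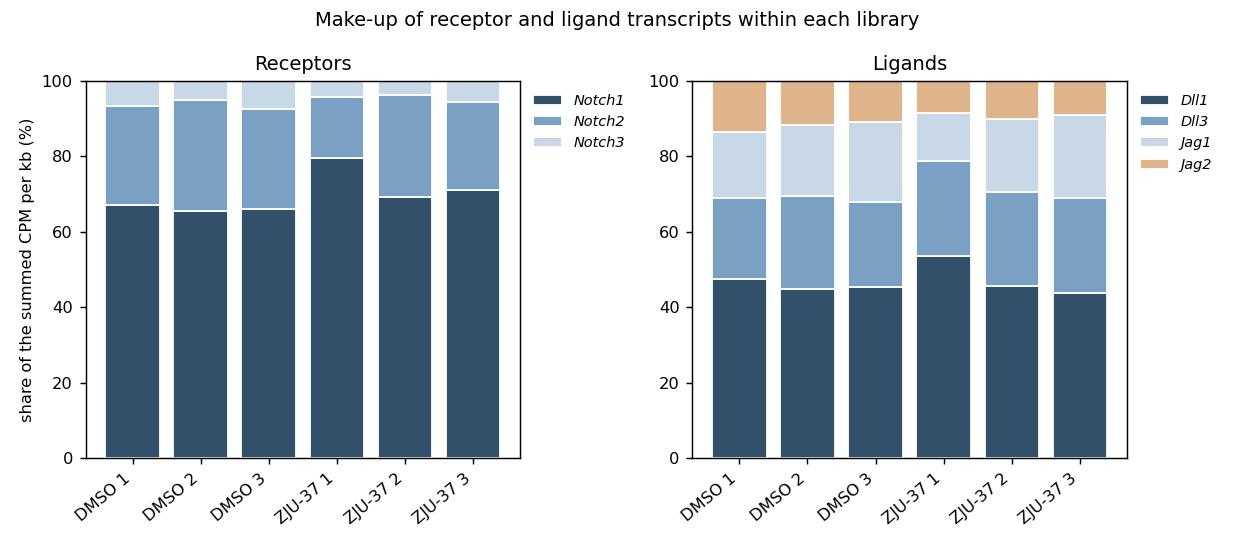
Share (y axis, percent from 0 to 100) of each receptor gene (left) and each ligand gene (right) in the summed CPM per kb of its class, with a bar for each of the 6 libraries (x axis). The Notch1 share lies between 65.5% and 67.2% in the DMSO bars and between 69.2% and 79.7% in the ZJU-37 bars, with the highest value in ZJU-37 replicate 1, and Jag2 is the smallest ligand share in every library.

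Of the 4 ligand genes, both Delta-like ligands had higher values with ZJU-37 in every pair. Dll3 (ENSRNOG00000019338, chromosome 1 from 85485289 to 85493685, plus strand) encodes a divergent Delta-like protein that stays largely inside the cell and acts on Notch in the same cell. It had 15.1, 18.5 and 15.8 CPM under DMSO against 25.5, 21.1 and 20.5 CPM under ZJU-37. All ZJU-37 libraries were above all DMSO libraries. Group means of 16.5 ± 1.78 CPM and 22.4 ± 2.76 CPM (SD, n = 3 each) gave a 1.36-fold difference with a 95% interval from 1.10 to 1.67. The log2 fold change of 0.44 (standard error 0.13) had an adjusted p-value of 0.0658 in edgeR's quasi-likelihood test and of 0.0186 with the block (log2 fold change 0.44, standard error 0.12). Without the pair of replicate 1 the blocked value was 0.29 (adjusted p = 0.0484, edgeR), and without the pair of replicate 3 its adjusted p-value was 0.0927 in edgeR.

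Dll1 (ENSRNOG00000059984, chromosome 1 from 57318708 to 57327379, minus strand), a ligand that activates Notch on neighboring cells, had 39.7, 39.9 and 37.8 CPM under DMSO, against 64.7, 45.9 and 42.0 CPM under ZJU-37. The groups did not overlap, and ZJU-37 replicate 1 was far above the other libraries. The means of 39.1 ± 1.16 CPM and 50.9 ± 12.1 CPM (SD, n = 3 each) gave a log2 fold change of 0.38 ± 0.16 (SE), with an adjusted p-value of 0.185 in edgeR, and the blocked fit did not pass either, with 0.35 and an adjusted p-value of 0.0559 in edgeR. Without ZJU-37 replicate 1 the log2 fold change was 0.19 (adjusted p = 0.159 in edgeR without the block), and without the pair of replicate 1 the blocked value was 0.18 with an adjusted p-value of 0.0417 in edgeR.

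Jag1 (ENSRNOG00000007443, chromosome 3 from 130079361 to 130114770, minus strand) had 22.2, 25.4 and 26.9 CPM in the DMSO libraries, and 23.4, 29.6 and 32.3 CPM after ZJU-37. The groups overlapped, although each ZJU-37 library was above its counterpart. Its log2 fold change was 0.20 with a 95% interval from -0.13 to 0.53 (adjusted p = 0.424 in edgeR). With the block it was 0.19 (adjusted p = 0.0859, edgeR), and 0.25 in the blocked fit without the pair of replicate 1 (adjusted p = 0.0228, edgeR). Jag2 (ENSRNOG00000013927, chromosome 6 from 137711155 to 137733026, minus strand), the other Jagged ligand, had 14.0, 12.9 and 11.1 CPM in controls and 12.8, 12.4 and 10.5 CPM in treated cells. Its groups overlapped and its log2 fold change was -0.09 with an interval from -0.41 to 0.23 (adjusted p = 0.719 in edgeR). The spans of Jag2 and Notch3 overlap other annotated genes, which held 8 and 0 counts in all.

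The summed level of the 4 ligands lay between 91.0 and 96.7 CPM with DMSO and between 105 and 126 CPM with ZJU-37, whereas the summed level of the 3 receptors lay between 444 and 472 CPM and between 439 and 518 CPM. Per kb, Dll1 was the highest ligand in both groups, with 10.6 ± 0.316 and 13.8 ± 3.29 CPM per kb (SD, n = 3 each), and Jag2 the lowest, with 2.80 ± 0.320 and 2.62 ± 0.261. Within the ligands, Dll3 took between 21.5% and 24.6% with DMSO and between 24.9% and 25.3% with ZJU-37, and Jag2 between 10.8% and 13.5% and between 8.58% and 9.99%. Neither share overlapped between the groups (two-sided exact permutation test, p = 0.1 for each, 0.333 adjusted over the 10 shares).

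The effector genes are the usual transcriptional readout of the pathway, and none of them separated the groups. RBPJ recognizes the letters TGGGAA, with GTGGGAA as a high-affinity form, and the sequences before the start sites of the effectors show where these letters lie. RefSeq promoter sequences of assembly GRCr8 were found for 9 of the 10 genes, the exception being Hey1, and their coordinates are not on the build of the deposited table. In the 250 bases before the start, TGGGAA on either strand was found in 3 of the 9 genes, Hes1, Hes5 and Dll1, each with 2 matches, beside 22.1% of all 33469 promoters with at least 1 match and 2.71% with 2 or more. The longer GTGGGAA, which contains TGGGAA, was present in 5.27% of all promoters, with 1 match in Hes1, 2 in Hes5 and 1 in Dll1. A match is a description of the letters and not a shown binding site. The 3 promoters are printed 5′ to 3′ on the strand of the gene, with the letters TGGGAA, or TTCCCA where the match is on the opposite strand, in capitals. They are those of Hes1 (chr11:84213046-84213295, minus strand), Hes5 (chr5:170804327-170804576, plus strand) and Dll1 (chr1:64993275-64993524, minus strand).
Hes1: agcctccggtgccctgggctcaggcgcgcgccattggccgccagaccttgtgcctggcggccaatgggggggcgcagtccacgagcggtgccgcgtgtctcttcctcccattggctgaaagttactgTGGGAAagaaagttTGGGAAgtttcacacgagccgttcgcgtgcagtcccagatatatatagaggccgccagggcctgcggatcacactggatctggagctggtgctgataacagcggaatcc
Hes5: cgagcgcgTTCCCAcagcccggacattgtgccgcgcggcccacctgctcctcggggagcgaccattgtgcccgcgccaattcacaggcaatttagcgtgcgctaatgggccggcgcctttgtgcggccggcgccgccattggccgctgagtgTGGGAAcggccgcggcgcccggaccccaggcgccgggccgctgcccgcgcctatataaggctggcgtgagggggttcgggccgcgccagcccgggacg
Dll1: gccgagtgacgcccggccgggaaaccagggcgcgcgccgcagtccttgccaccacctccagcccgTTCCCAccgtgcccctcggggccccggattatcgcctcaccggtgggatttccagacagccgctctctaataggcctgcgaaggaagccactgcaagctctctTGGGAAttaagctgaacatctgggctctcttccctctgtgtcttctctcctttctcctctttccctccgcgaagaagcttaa

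In Hes1 both matches read along the gene, beginning 123 and 109 bases before the start, so that they stand side by side. In Hes5 the matches face opposite ways and begin 242 and 98 bases before the start, and in Dll1 they begin 185 and 82 bases before it. Hes1 (ENSRNOG00000001720, chromosome 11 from 74312806 to 74315248 in the deposited table, minus strand) had 7.45, 5.42 and 7.22 CPM under DMSO against 7.89, 5.96 and 10.3 CPM under ZJU-37. ZJU-37 replicate 3 was the highest library, and the other values overlapped. The log2 fold change was 0.27 with a 95% interval from -0.30 to 0.84 (adjusted p = 0.526 in edgeR). With the block it was 0.25 (adjusted p = 0.215, edgeR).

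Hes5 (ENSRNOG00000013850, chromosome 5 from 172364421 to 172365188, plus strand), the HES gene most closely tied to Notch activity in neural precursors, had 7.30, 4.63 and 4.83 CPM under DMSO, against 7.52, 2.42 and 4.05 CPM under ZJU-37. Replicate 1 was the highest library of each group, and the groups overlapped. The counts behind these values were 100, 82 and 91 and then 139, 50 and 98, the lowest totals of the 10 genes. The log2 fold change was -0.26 with an interval from -1.27 to 0.75 (adjusted p = 0.742 in edgeR), and it turned to 0.08 without ZJU-37 replicate 2. A difference of 1 on the log2 scale in the negative direction lies within that interval. A change of this size in Hes5 was therefore not resolved without the block. With the block the log2 fold change was -0.36 ± 0.21 (SE), with an adjusted p-value of 0.222 in edgeR. It was -0.57 without the pair of replicate 1 and -0.11 without that of replicate 2.

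Hey1 (ENSRNOG00000011593, chromosome 2 from 95320283 to 95322696, plus strand) had 6.65, 7.17 and 8.18 CPM in the DMSO libraries, and 9.30, 6.35 and 5.91 CPM after ZJU-37. The lowest and the highest library were both ZJU-37 libraries. Its log2 fold change was -0.03 with an interval from -0.53 to 0.46 (adjusted p = 0.938 in edgeR), a value whose sign changed with the scaling and with the libraries used. With the block it was -0.06 (adjusted p = 0.84, edgeR). Per kb, Hes5 and Hey1 ranked next below Dll1 with DMSO, at 9.44 ± 2.52 and 7.81 ± 0.827 CPM per kb (SD, n = 3 each), whereas Hes1 had 4.64 ± 0.769. The DMSO libraries of Hes5 overlapped those of Dll1, and those of Hey1 lay below them. The lengths listed for Hes5 and Hey1, 592 and 939 bases, are short, and a level per kb depends on how much of the transcript a listed length covers.

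Set in order per kb, the DMSO levels ran Notch1, Notch2, Dll1, Hes5, Hey1, Dll3, Hes1, Jag1, Notch3 and Jag2. Neighbors whose DMSO libraries overlapped were Dll1 with Hes5, Hes5 with Hey1, Dll3 with Hes1, Hes1 with Jag1, and Notch3 with Jag2. With ZJU-37 the order was Notch1, Dll1, Notch2, Hes5, Hey1, Dll3, Hes1, Jag1, Jag2 and Notch3, and 2 pairs of neighbors had exchanged places. Dll1 was above Notch2 in all 3 ZJU-37 libraries, with 17.6, 12.5 and 11.4 CPM per kb against 8.55, 11.9 and 11.3, although the ranges overlapped, and below it in all 3 DMSO libraries, with 10.8, 10.8 and 10.3 against 12.4, 13.1 and 12.5. Jag2 and Notch3 overlapped in both groups. Apart from Notch1 above Dll1 and Jag1 above Jag2, all neighbors in the ZJU-37 order overlapped.

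**Figure D3:**
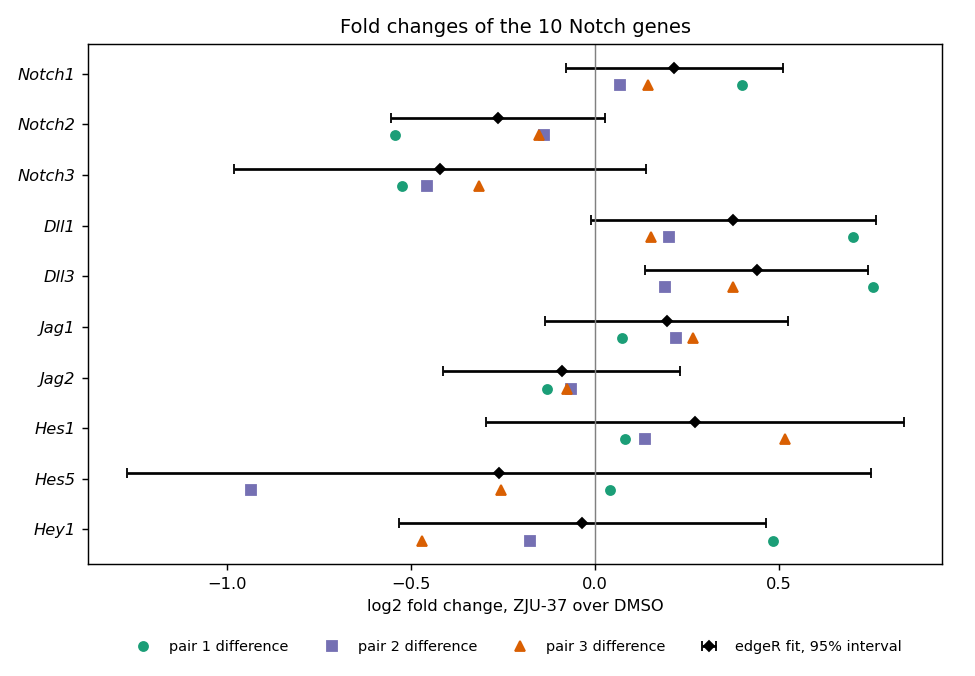
Log2 fold change, ZJU-37 over DMSO (x axis), of the 10 Notch genes (y axis), with the edgeR estimate and its 95% interval as a diamond with a bar and the difference within each replicate pair as a symbol. The interval of Dll3, from 0.14 to 0.74, is the one that leaves out 0, and the pairs of Hey1 fall on both sides of 0.

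The remaining machinery was followed in a list of 46 other pathway genes, of which 44 were in the table and 42 were tested. Dll4 and Hes3, with 36 and 40 counts over all 6 libraries, did not pass the filter on low counts. Of the 42 tested, 3 were higher and 3 were lower with ZJU-37 at an adjusted p-value under 0.05 in edgeR, beside 9.43% of all tested genes higher and 5.58% lower, and 36 did not pass. The median log2 fold change of the 42 genes was -0.02, against -0.03 over all tested genes. With the replicate block 4 were higher and 8 lower, beside 16.2% and 15.9% of all tested genes.

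In the nuclear complex, Rbpj, which encodes the DNA-binding protein of the pathway, fell. It had 250.0, 250.3 and 227 CPM in controls and 169, 207 and 189 CPM in treated cells, with no overlap. The log2 fold change was -0.36 ± 0.089 (SE), with an adjusted p-value of 0.0388 in edgeR. Neither Maml1 nor Maml2, the Mastermind co-activators measured, passed the test, with log2 fold changes of 0.03 and 0.15, and Spen, a co-repressor gene of RBPJ, had 0.01.

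Among the proteolysis genes, Psenen, which encodes the γ-secretase subunit PEN2, had 58.4, 60.2 and 59.5 CPM in the DMSO libraries, and 42.0, 50.0 and 48.6 CPM after ZJU-37. It fell by 0.34 on the log2 scale (standard error 0.080, adjusted p = 0.0326 in edgeR). Of the 8 proteolysis genes tested, 7 had negative log2 fold changes, as did 7917 of all 14670 tested genes. With the block 4 of the 8, Psenen among them, were lower, beside 15.9% of all tested genes. The 3 others that passed with the block, Psen2 and Ncstn of γ-secretase and the protease gene Adam17, are named after their values were seen, with log2 fold changes of -0.50, -0.15 and -0.17 and adjusted p-values of 0.0314, 0.0461 and 0.0446 in the blocked edgeR fit. Blocked DESeq2 did not call Ncstn or Adam17 (adjusted p = 0.119 and 0.108). Adam17 passed in none of the 3 blocked edgeR fits that left out a pair (adjusted p from 0.0876 to 0.15), Ncstn failed without pair 2 or 3 (0.203 and 0.228) and Psen2 failed without pair 3 (0.107). Adam10, the main protease of the first cut, had a positive value of 0.14 that did not pass.

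Of the further HES and HEY genes and Notch targets in the list, those described here did not pass. Nrarp, a feedback inhibitor, had a log2 fold change of 0.10, Heyl one of 0.17 and Hey2 one of -0.27. Hes6, which counteracts Hes1, had -0.12 and Hes7 had -0.50, while Hes3 was too low to test.

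Dlk1, a Delta-like gene whose product lacks the domain that activates Notch, rose from 2.12, 1.92 and 1.81 CPM under DMSO to 4.27, 4.17 and 3.43 CPM under ZJU-37. Its log2 fold change of 1.02 ± 0.19 (SE, adjusted p = 0.0145 in edgeR) rests on 345 counts over the 6 libraries. Neurl1b, which encodes a ubiquitin ligase acting on Notch ligands, rose from 14.8, 10.5 and 12.9 CPM to 22.3, 18.0 and 18.5 CPM. Its log2 fold change was 0.62 ± 0.15 (SE), with an adjusted p-value of 0.0403 in edgeR. None of the 5 glycosylation genes passed without the block. Poglut1, the most abundant of them by CPM, had 72.1 ± 3.26 CPM and 74.4 ± 3.34 CPM (SD, n = 3 each). With the block Pofut1 was higher by 0.18 and Mfng lower by 0.40 on the log2 scale, and the ubiquitin ligase gene Mib1 was lower by 0.28 (adjusted p = 0.0357, 0.0109 and 0.00218 in edgeR), and these were named after their values were seen. Blocked DESeq2 did not call Pofut1 (adjusted p = 0.202), which also failed in blocked edgeR without pair 2 or 3 (0.154 and 0.203). Without pair 3, Mfng and Mib1 had adjusted p-values of 0.0613 and 0.0522 in blocked edgeR.

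Dlk1 passed the threshold in 4 of the 6 fits that left out a library, failing without DMSO replicate 2 or 3. Rbpj passed in 1 (without ZJU-37 replicate 2), Neurl1b in 1 (without DMSO replicate 1) and Psenen in 0. These 4 genes had log2 fold changes that kept their sign and adjusted p-values of at most 0.0576, 0.129, 0.108 and 0.109, respectively, in edgeR. With the replicate block their adjusted p-values were 0.005, 0.00289, 0.00121 and 0.00311 in edgeR, in the same order. Each of the 4 also passed in every blocked edgeR fit that left out a pair and in blocked DESeq2.

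**Figure D4:**
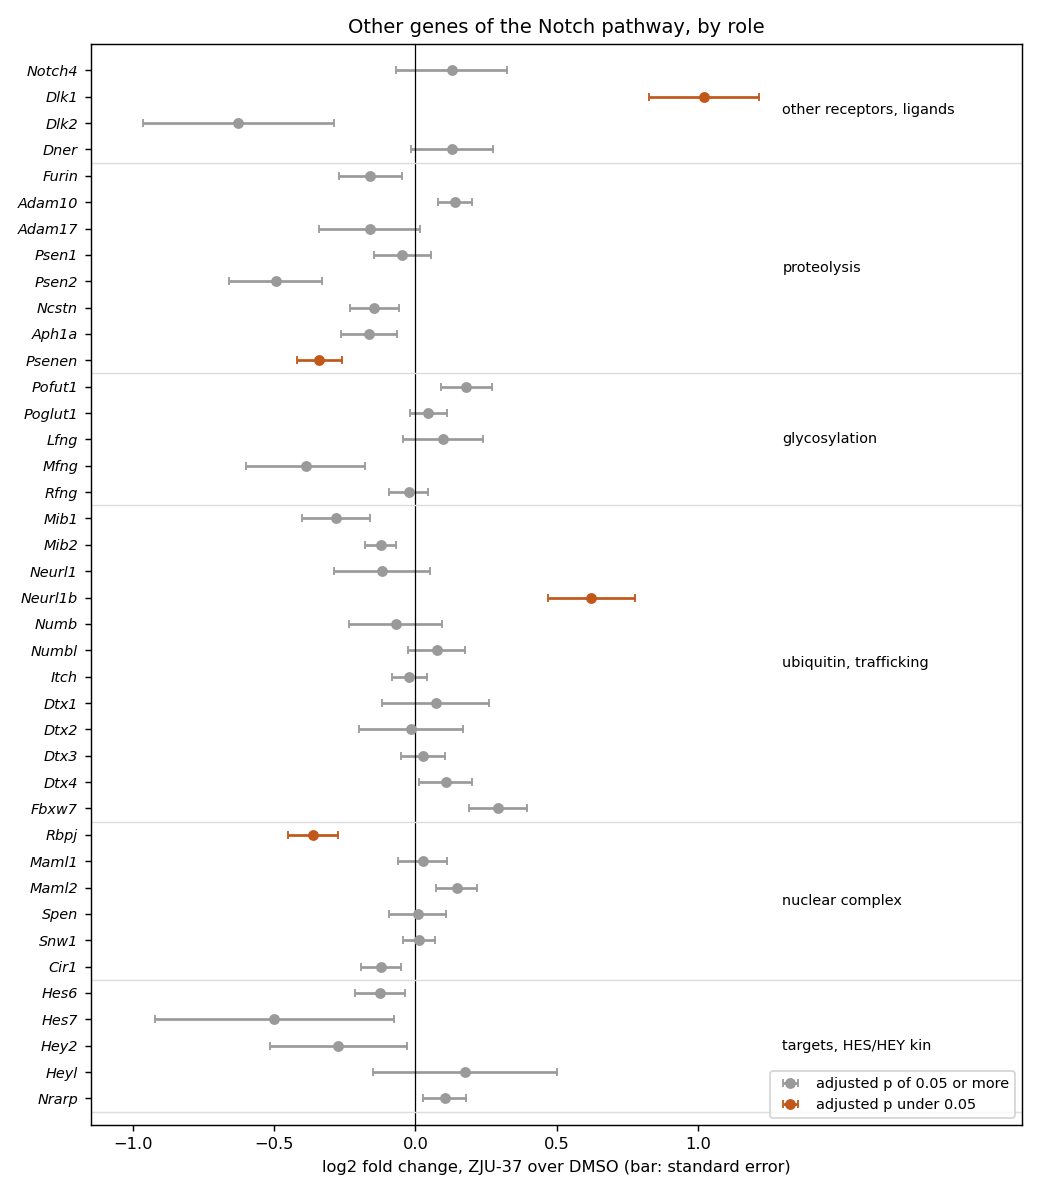
Log2 fold change, ZJU-37 over DMSO (x axis, bar: standard error), of 40 other tested Notch pathway genes (y axis), grouped by role. Dlk1 and Neurl1b are the genes shown past the adjusted threshold on the positive side, at 1.02 and 0.62, and Psenen and Rbpj those on the negative side, at -0.34 and -0.36.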

How the data were processed

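The members and gene lists were chosen with earlier results of these data known. The authors deposited raw counts per gene, made with featureCounts, and FPKM values that scale these counts by gene length and sequencing depth. The submitters' processing notes name HISAT2 2.0.5, StringTie 1.3.3b and featureCounts 1.5.0. The genome build is not given in the sources used here, nor is whether counting used strand. The authors' group means, fold changes and p-values in the same table were not used.

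The filter on low counts was filterByExpr. TMM factors lay between 0.981 and 1.04. The quasi-likelihood test was that of edgeR 4.0.16 under R 4.3.3 (robust glmQLFit, then glmQLFTest), with Benjamini-Hochberg adjustment over 14670 genes. The study's methods name DESeq2 without a pair term, and DESeq2 1.42.0 was an alternative here. Each standard error was derived from the F statistic. Named were the 10 members, the other pathway genes past the threshold, and the most abundant gene of any role without such a gene. Of the other pathway genes past the threshold, 2 are counted but not reported here. Further pathway genes were named after their values were seen. Libraries sharing a number deviated alike from their groups (r = 0.39, 0.31 and 0.33 over 14670 genes, against at most -0.01 for other numbers), and the replicate numbers of the labels were therefore used as pairs in the blocked fit. Deviations within a group sum to 0, so the values for other numbers are not independent of those for the same number. The edgeR step was first tested on simulated data with 200 changed genes. Without the block it recovered 67% of the changes of 1 on the log2 scale and 92% of those of 2. Of its calls 7.02% were false, and smaller changes were not simulated. No pair of libraries agreed within sampling noise. Other scalings and filters, limma 3.58.1 on log2(FPKM + 1) and log2(FPKM + 0.1), the replicate block and leaving out each library were the alternatives. The blocked fits without a pair and blocked DESeq2 were added after the data had been seen.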

Additional observations from a re-analysis of the deposited data

How the results depend on the processing

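The count of 0 members past the threshold held in 11 of the 13 alternatives, and became 1 with DESeq2 (Dll3) and 4 with the replicate block. Among the 11, the stricter threshold of 0.01 could not raise a count of 0. The fits that left out a library had fewer libraries with which to find a difference. In the blocked fit the 4 members became 2 with DESeq2, 5 without the pair of replicate 1, 3 without that of replicate 2 and 1 without that of replicate 3. The 6 other pathway genes past the threshold became 12 with the block, 2 at an adjusted p-value under 0.01, and between 2 (without DMSO replicate 2 or 3) and 5 when a library was left out, with 3 without ZJU-37 replicate 1 or 3. The 12 became 6 in the blocked fit without the pair of replicate 3. Over all genes the 2201 calls became 4705 with the block, of which 50.4% were higher against 62.8% without it, 1053 at the stricter threshold, and between 1306 (without DMSO replicate 2) and 1927 when a library was left out, with 1351 without ZJU-37 replicate 3. The 4705 became 3284 with DESeq2, and 4885, 3373 and 2461 without the pair of replicate 1, 2 and 3, respectively. Of 140 alternative values for the log2 fold changes of the 10 members, 129 kept their direction and side of the threshold, 5 newly passed it and 6 turned sign. Hey1 turned to 0.000696 when library totals alone set the scale. When a library was left out, Hey1 ran from -0.24 to 0.12, Hes5 from -0.75 to 0.082 and Jag2 from -0.18 to 0.017. In the blocked fit without the pair of replicate 3, Hey1 had 0.15. The causes of these changes were not tested. Hes5, Hes1 and Hey1 had 560, 853 and 818 counts over the 6 libraries, and their log2 fold changes had standard errors of 0.42, 0.24 and 0.21.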
